A study of Mus musculus with 4 samples.

Results

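Genes of glucose uptake, glycolysis and lactate handling were described in blastocyst outgrowths of wild-type and Tip110-/- mice. The list had 36 genes. A gene was measured where the array's annotation gave a row exactly 1 symbol equal to it, and of several such rows the brightest on average was taken. This gave 32 measured genes, among 30142 genes on the array with a row of exactly 1 symbol. Gpi1, Pfkfb1, Pfkfb2 and Eno1 had no such row, and their signal was not analysed here.

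In culture a blastocyst settles on the dish, its outer trophoblast cells flatten outwards, and the inner cell mass grows in their midst. Blastocysts of matings between Tip110+/- parents, natural or after superovulation, were taken at 3.5 days post coitum. Each grew singly for 4 to 6 days in stem cell medium that held knockout serum replacement, without treatment, and was genotyped from its own RNA. Tip110 is the product of Sart3 and helps U4 and U6 small nuclear RNAs to re-form a joint particle during splicing. Both genotypes had 2 arrays: replicate 1 pooled RNA of 3 outgrowths, and replicate 2 came from 1 outgrowth. The yield of RNA came to 249 and 178 pg an outgrowth in wild-type, against 55 and 144 pg in Tip110-/-, lower in both mutant samples, and the shares of RNA yield and genotype in a difference cannot be told apart. How the mutant Tip110 allele was made is not given in the sources used here.

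Glycolysis splits glucose into pyruvate and yields ATP without oxygen. Cells take up glucose through transporters of the Slc2a family, trap it with hexokinases, commit it with phosphofructokinases and end the path with pyruvate kinase. Pyruvate then becomes lactate, which leaves through monocarboxylate transporters, or enters mitochondria through pyruvate dehydrogenase, which the Pdk kinases switch off. The blastocyst is known for a steep rise in glucose uptake, and pluripotent cells for strong glycolysis.

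Values are the deposited log2 signals, where a difference of 1 is a 2-fold change. Rows made of antigenomic probes, which match no mouse transcript, mark the background. Their 95th percentile was 4.24 and 4.63 on the wild-type arrays and 4.69 and 4.71 on the Tip110-/- arrays. A row at or below that level on all 4 arrays is called near background here. A difference there may understate a change or may follow a shift of the background itself. Sart3 was at 4.94 and 5.98 in wild-type and at 4.28 and 4.54 in Tip110-/-, a difference of -1.05 ± 0.39 (SE) that was under an unadjusted p of 0.05 but did not pass adjustment (limma adjusted p = 0.386). The labels' tissue was borne out in part by its markers. The trophoblast keratin Krt8 lay between 16.08 and 17.22 on all arrays. Of the same list, Eomes was at 11.34 to 12.97, while Cdx2, at 4.66 to 6.10, and Elf5, at 5.20 to 6.39, were dimmer. The epiblast factor Pou5f1 was at 10.04 and 10.06 in wild-type and at 7.75 and 5.52 in Tip110-/-. All 7 fibroblast markers were near background, as were 3 of 12 primitive endoderm markers (Sox17, Sox7 and Ttr) and 2 of 4 blood and macrophage markers (Ptprc and Adgre1). The endoderm marker Sparc, at 11.37 to 12.90, and the macrophage markers Cd68, at 7.69 to 10.42, and Csf1r, at 4.80 to 9.61, were above it. Nothing in the labels ties equal replicate numbers to a litter or day. With 2 samples per genotype, each limma p-value rests on the spread within these pairs, drawn towards the spread of all genes of similar signal.

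Comparing the genotypes asks how the transcripts differ in embryos that lack Tip110. At an unadjusted p under 0.05, 4 of the 32 genes were lower in Tip110-/- outgrowths: the glucose transporter Slc2a3, the phosphofructokinase Pfkp, the pyruvate kinase Pkm and the pyruvate dehydrogenase kinase Pdk3. They differed from wild-type by 4.28-fold to 9.25-fold. A further 2 genes were higher at that mark, Bpgm by 1.67-fold and Pdk4 by 1.43-fold, the latter near background. The other 26 genes did not reach it, and in 14 genes the arrays of the genotypes overlapped. No member passed after Benjamini-Hochberg adjustment over all genes (smallest limma adjusted p = 0.291, for Pfkp), and 0 of the 30142 genes did, with 3.67% of all genes lower and 8.99% higher at the unadjusted mark.

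The 4 lower members made up 12.5% of the 32, against that 3.67% of all genes, and the 2 higher members 6.25%, against 8.99%. With quantile normalization and cyclic loess the same number was higher, against only 4.19% and 3.89% of all genes. Lower members then numbered 3 and 4, against a larger share of all genes, 4.84% and 5.11%. The median difference over the 32 members was 0.02 and over all genes 0.15. The members' median signal on an array had an SD of 0.20 between replicates. That SD holds shifts of whole arrays and so cannot serve as a measure for the gap. Without wild-type replicate 1 the members' median difference was 0.16, against 0.16 for all genes, and without wild-type replicate 2 it was -0.11, against 0.15. Its sign turned with the scaling, to -0.075 with quantile normalization, -0.15 with centring and -0.10 with cyclic loess. The median of all genes moved down as well, to 0.011, -0.017 and 0.0045. Differences below are as measured; relative to the median of all genes each is lower by 0.15. With each array centred on its median, 5 members were lower and 1 was higher, beside 6.05% and 3.02% of all genes. In 8 members both Tip110-/- arrays lay below both wild-type arrays, a pattern shown by 12.9% of all genes, and in 10 both lay above, as in 39.9% of all genes. Of those 10, 7 were near background. A signal at least 2-fold lower was seen in 5 members (15.6%), Hk2 being the fifth, against 5.56% of all genes, and a signal at least 2-fold higher in 0, against 4.53%.

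**Figure D1:**
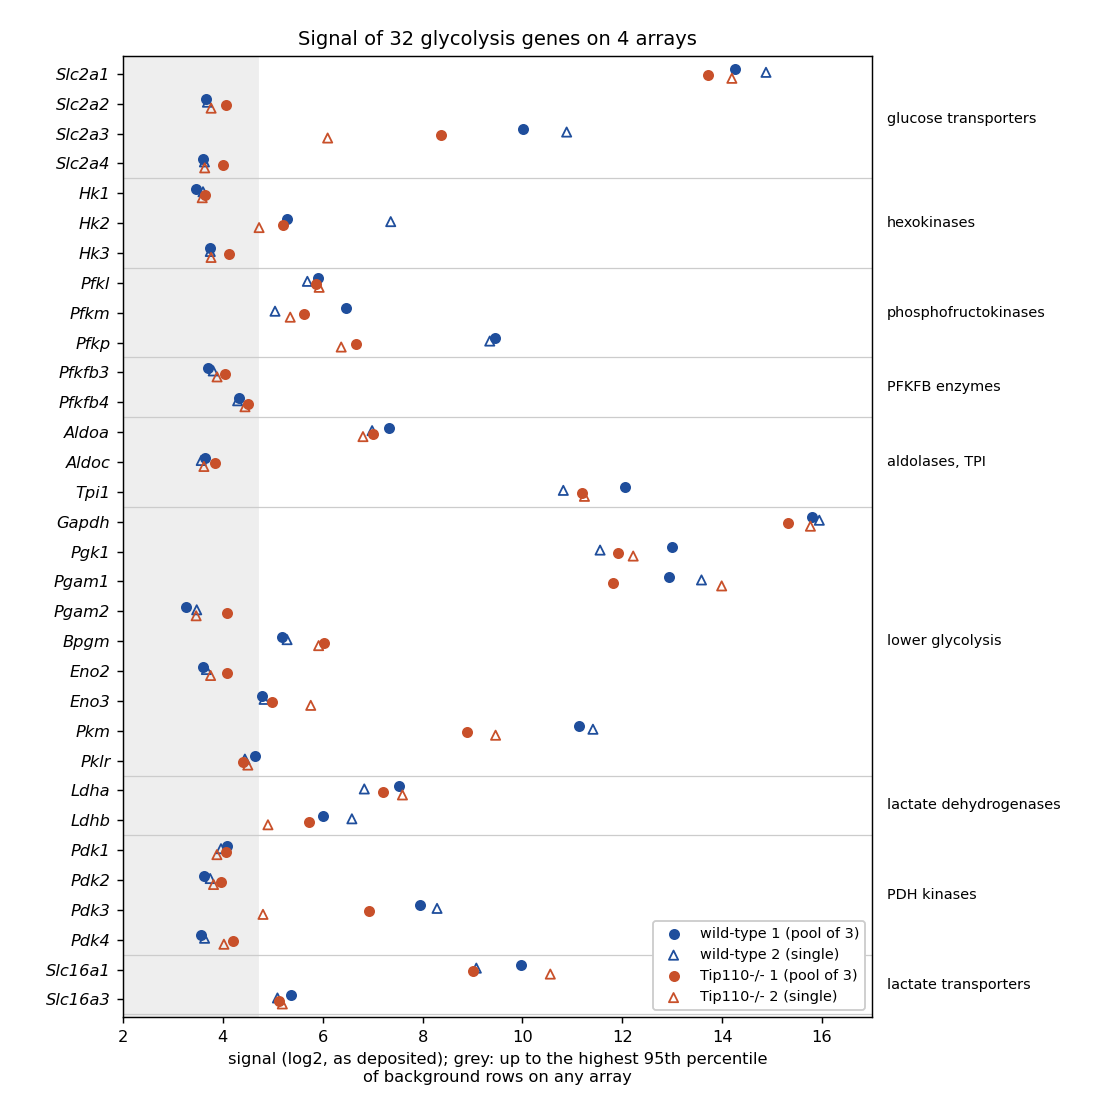
Deposited log2 signal of the 32 measured genes, ordered by step of the pathway, on each of the 4 arrays (blue wild-type, red Tip110-/-; filled circles pools of 3 outgrowths, open triangles single outgrowths). The grey band reaches the highest 95th percentile of the background rows; Slc2a3, Pfkp, Pkm and Pdk3 show both red points clearly left of both blue points.

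Glucose enters through facilitative transporters, and 2 of the 4 listed were well above background. Slc2a1, the widely expressed GLUT1, was at 14.26 and 14.88 in wild-type and at 13.71 and 14.19 in Tip110-/-. Both mutant arrays were lower, by a narrow margin, and the difference of -0.61 ± 0.39 (SE) did not pass (limma adjusted p = 0.471). Slc2a3, the high-affinity transporter GLUT3 of early embryos and neurons, was at 10.003 and 10.88 in wild-type and at 8.37 and 6.10 in Tip110-/-. The groups did not overlap, and the single mutant outgrowth was the lowest. The difference was -3.21 ± 0.91 (SE), a 9.25-fold lower signal (limma adjusted p = 0.343), and 0.544% of all genes had a more negative difference. Without wild-type replicate 2 it was -2.77 and without Tip110-/- replicate 2 it was -2.07, both no longer under an unadjusted p of 0.05. Slc2a2, the transporter of liver and pancreatic beta cells, and Slc2a4, the insulin-responsive transporter of muscle and fat, lay between 3.61 and 4.06 on all arrays, near background.

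Hexokinases phosphorylate glucose on entry. Hk2, the inducible hexokinase bound to mitochondria, was at 5.29 and 7.36 in wild-type and at 5.20 and 4.73 in Tip110-/-. Only the single wild-type outgrowth stood high, and the pooled wild-type array was close to the pooled mutant array. The difference of -1.36 ± 0.72 (SE) did not pass (limma adjusted p = 0.432). It was -0.32 without wild-type replicate 2, and -2.40 and under the unadjusted mark without wild-type replicate 1. Hk1, the constitutive form, and Hk3, the form of white blood cells, lay between 3.46 and 4.13, near background on every array.

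Phosphofructokinase makes the committed step, from subunits named for liver, muscle and platelet. Pfkp, the platelet type, was at 9.45 and 9.34 in wild-type and at 6.68 and 6.37 in Tip110-/-. Replicates of each genotype lay within 0.31 of each other, far less than the gap between genotypes. The difference was -2.88 ± 0.45 (SE), 7.34-fold lower, with a 95% interval from -4.04 to -1.71 (limma adjusted p = 0.291). It lay between -3.03 and -2.72 when any 1 array was left out, each time under the unadjusted mark. The arrays of the genotypes overlapped for both other subunits. Pfkl, the liver type, was at 5.91 and 5.69 against 5.87 and 5.93, a difference of 0.10 ± 0.29 (SE) that turned to -0.07 with arrays centred on their median. Pfkm, the muscle type, was at 6.46 and 5.04 against 5.63 and 5.35, and its 95% interval ran from -1.61 to 1.07. Pfkfb3 and Pfkfb4 make or remove fructose 2,6-bisphosphate, the activator of phosphofructokinase. Pfkfb3 was near background at 3.70 to 4.04, and Pfkfb4 reached only 4.50.

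The middle steps, from aldolase to enolase, are catalysed by abundant enzymes, and Aldoa, Tpi1, Gapdh, Pgk1 and Pgam1 were well above background in both genotypes. Aldoa, the main aldolase, was at 7.33 and 6.99 in wild-type and at 7.002 and 6.81 in Tip110-/-, a difference of -0.26 ± 0.40 (SE). Tpi1, triose phosphate isomerase, was at 12.06 and 10.82 against 11.20 and 11.24, so both mutant arrays lay between the wild-type ones. Gapdh, the glyceraldehyde phosphate dehydrogenase often used as a reference gene, was at 15.81 and 15.94 against 15.33 and 15.77. Its groups came close without overlap, and the difference of -0.33 ± 0.26 (SE) did not pass (limma adjusted p = 0.531). Aldoc, the brain aldolase, lay at or below 3.85 on all arrays.

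Several of these enzymes have near-identical retrocopies in the mouse genome, and their rows cannot be told apart from those copies with certainty. The row identifiers carry a chromosome, which was that of the RefSeq gene for 31 of the 32 members. The exception was Pgk1, phosphoglycerate kinase, whose brighter row names chromosome 12 while the gene lies on X. That row was at 12.99 and 11.55 in wild-type and at 11.91 and 12.22 in Tip110-/-; the row naming X was at 11.81 and 10.77 against 10.83 and 11.25. Both rows gave the same order of the arrays and similar differences, -0.21 and -0.25. A further row shared by Gapdh and the gene model Gm7336 was at 18.09 and 18.20 against 17.03 and 17.70.

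Pgam1, phosphoglycerate mutase, set the mutant arrays furthest apart from each other among the genes of lower glycolysis. It was at 12.94 and 13.58 in wild-type, at 11.82 in the pooled mutant array and at 13.99 in the single mutant outgrowth. The mutant values thus lay on either side of wild-type, and the difference of -0.36 ± 0.81 (SE) became 0.73 without Tip110-/- replicate 1. Rows shared with the copies Gm8910 and Pgam1-ps2 had the same order, at 13.39, 14.29, 11.68 and 14.68 and at 15.95, 16.15, 14.47 and 16.69 from wild-type 1 to Tip110-/- 2. Pgam2, the muscle form, and Eno2, the neuronal enolase, were near background. Eno3, the muscle enolase, was at 4.78 and 4.83 against 4.98 and 5.76, a difference of 0.57 ± 0.33 (SE) that did not pass (limma adjusted p = 0.449). It was 0.18 without Tip110-/- replicate 2, and 0.96 and under the unadjusted mark without Tip110-/- replicate 1.

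Bpgm diverts 1,3-bisphosphoglycerate to 2,3-bisphosphoglycerate and was the one member above background that was higher at the unadjusted mark. It was at 5.18 and 5.29 in wild-type and at 6.02 and 5.92 in Tip110-/-. The replicates were close and the groups did not overlap. The difference was 0.74 ± 0.26 (SE), 1.67-fold (limma adjusted p = 0.380). It was no longer under the unadjusted mark with arrays centred on their median (0.57), with genes below the median row left out, with the replicate number as a block, or without any 1 of the arrays.

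Pyruvate kinase closes the pathway. Pkm, the gene of the M1 and M2 forms, was at 11.13 and 11.41 in wild-type and at 8.89 and 9.46 in Tip110-/-. Both mutant arrays were lower by more than the spread within either genotype. The difference was -2.10 ± 0.54 (SE), 4.28-fold lower (limma adjusted p = 0.339), and it lay between -2.38 and -1.81 with 1 array left out. It was no longer under the unadjusted mark without wild-type replicate 2 or without Tip110-/- replicate 1. The row does not separate the splice forms M1 and M2. Pklr, the form of liver and red cells, was at 4.65 and 4.44 against 4.40 and 4.50, at the edge of background.

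Lactate dehydrogenase turns pyruvate into lactate and back. Ldha, whose product favours lactate, was at 7.53 and 6.83 in wild-type and at 7.21 and 7.60 in Tip110-/-. The groups overlapped, with a 95% interval of the difference from -0.98 to 1.43. Ldhb, whose product favours pyruvate, was at 6.00 and 6.58 against 5.73 and 4.90. Both mutant arrays were lower, and the difference of -0.98 ± 0.42 (SE) did not pass (limma adjusted p = 0.399). The proton-coupled lactate carriers overlapped between genotypes: Slc16a1 was at 9.97 and 9.08 against 9.004 and 10.56, and Slc16a3, the form of highly glycolytic cells, lay between 5.09 and 5.37 on all arrays.

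The Pdk kinases inhibit pyruvate dehydrogenase and so keep pyruvate out of the citric acid cycle. Pdk3 was the only one above background, at 7.95 and 8.29 in wild-type and at 6.92 and 4.80 in Tip110-/-. The mutant arrays were both lower, and the single outgrowth lay far below the pool. The difference was -2.26 ± 0.77 (SE), 4.78-fold lower (limma adjusted p = 0.371). It was -1.20 without Tip110-/- replicate 2, -2.43 without wild-type replicate 1 and -2.09 without wild-type replicate 2, each no longer under the unadjusted mark. Quantile normalization and a fit without the intensity trend also ended that call. Pdk4, the starvation-induced form, was at 3.56 and 3.63 against 4.21 and 4.02, and its difference of 0.52 ± 0.13 (SE) stood near background (limma adjusted p = 0.339). It was 0.32 with quantile normalization, and without wild-type replicate 1 it was no longer under the unadjusted mark. Pdk1 and Pdk2 lay between 3.63 and 4.07.

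**Figure D2:**
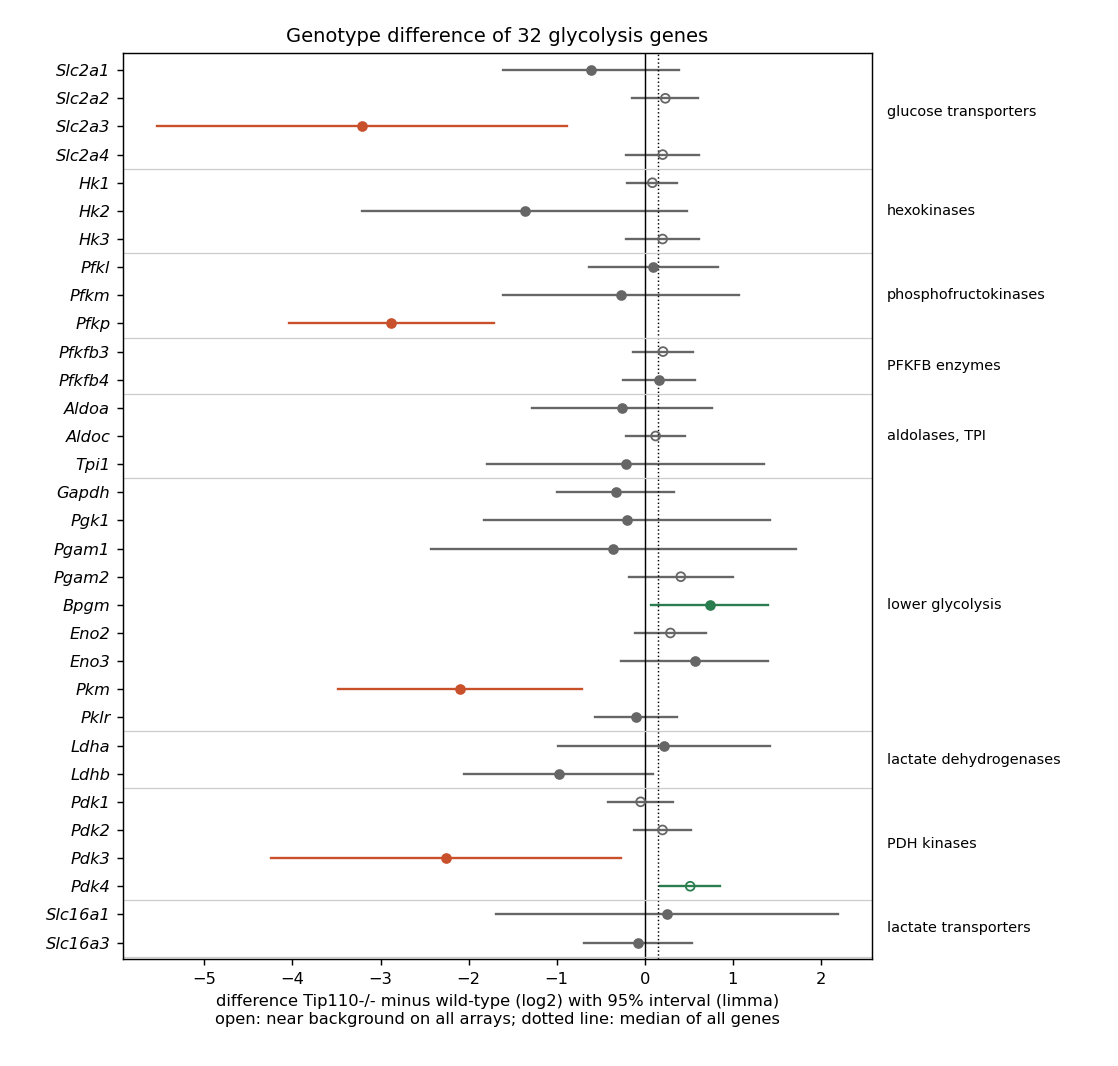
Difference between genotypes (Tip110-/- minus wild-type, log2) for the 32 genes, with limma's 95% interval from 4 arrays; red and green mark lower and higher at an unadjusted p under 0.05, and open circles genes near background. Slc2a3, Pfkp, Pkm and Pdk3 lie at -2.10 or below, while most intervals span 0 and the dotted line at 0.15 marks the median of all genes.

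The 11 members near background lay between 3.26 and 4.21. Of these, 10 had a positive difference, and all 11 were higher in the pooled than in the single mutant array. The median of the antigenomic rows was 2.83 and 2.82 in wild-type, against 3.05 and 2.94 in Tip110-/-, highest in the pooled mutant array, whereas their 95th percentile was highest in the single one. Of the 21 other members, 15 had a negative difference, and 9 were higher in the pooled than in the single mutant array. No member differed between pooled and single outgrowths at an unadjusted p under 0.05 in a fit with genotype and replicate number, where 3.27% of all genes did.

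Log ratios of 2 isozymes on the same array do not depend on the overall scale of that array. The Slc2a3 to Slc2a1 ratio was -4.25 and -3.99 in wild-type, against -5.35 and -8.09 in Tip110-/-. The Pfkp to Pfkl ratio was 3.55 and 3.65 against 0.81 and 0.44. For both pairs the groups did not overlap, and the mean differences were -2.60 and -2.97. The Ldha to Ldhb ratio overlapped, at 1.53 and 0.25 against 1.48 and 2.69, and so did Slc16a3 to Slc16a1. The Hk2 to Hk1 ratio, at 1.83 and 3.76 against 1.55 and 1.14, has Hk1 near background. An exact two-sided permutation test with 2 arrays against 2 cannot go below p = 0.333, which the first 2 pairs and Hk2 to Hk1 reached (adjusted p = 0.556 over the 5 pairs). The first 2 pairs also reached it with quantile normalization and cyclic loess; Ldha to Ldhb did so under both of these alone, and Hk2 to Hk1 did not with cyclic loess.

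**Figure D3:**
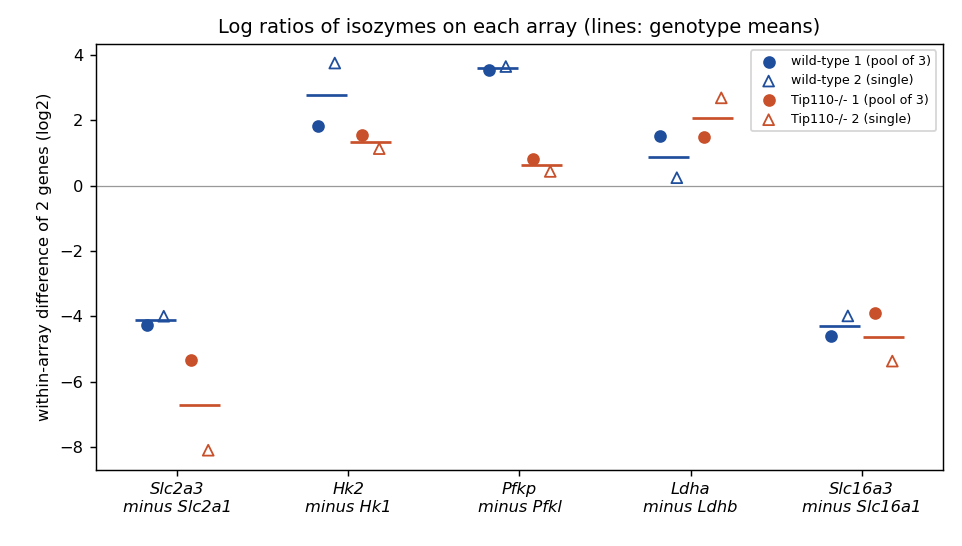
Within-array difference of the log2 signal of 2 isozymes on each array, with genotype means as lines; heights are comparable within a pair and not between pairs, since each row has its own probes. The Pfkp minus Pfkl points lie at 3.55 and 3.65 in wild-type against 0.81 and 0.44 in Tip110-/-, and the Slc2a3 minus Slc2a1 points are lower in both mutant arrays.

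Many glycolysis genes are known targets of hypoxia-inducible factors, which bind the core ACGTG or GCGTG. RefSeq promoter windows (GRCm38.p6, 250 bases before to 50 after the most upstream start) were at hand for 34 of the 36 genes; Slc2a3 and Slc2a4 had none. The core occurred on either strand in 23 of the 34 windows (67.6%), against 43.8% of all 27025 windows and 49.2% of the 17492 of protein-coding genes. The E-box CACGTG, which contains ACGTG on both strands, occurred in 4 windows (11.8%, against 7.24% of all and 7.91% of protein-coding windows), and the GC box GGGCGG in 18 (52.9%, against 35.9% and 46.3%). The 250 bases before the start are shown for 6 members: 3 of the lower ones, Bpgm, and Slc2a1 and Ldha, which did not reach the mark. They lie at chr13:6648772-6649021 (minus strand, Pfkp), chr9:59656326-59656575 (plus, Pkm), chrX:93832151-93832400 (minus, Pdk3), chr6:34476106-34476355 (plus, Bpgm), chr4:119108495-119108744 (plus, Slc2a1) and chr7:46845554-46845803 (plus, Ldha). Capitals mark the core on either strand, and the letters read 5′ to 3′ on the strand of the gene.
Pfkp: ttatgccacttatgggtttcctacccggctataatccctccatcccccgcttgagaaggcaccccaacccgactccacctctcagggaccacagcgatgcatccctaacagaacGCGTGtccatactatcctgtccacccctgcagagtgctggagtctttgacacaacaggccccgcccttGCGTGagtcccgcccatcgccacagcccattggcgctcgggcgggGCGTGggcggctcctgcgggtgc
Pkm: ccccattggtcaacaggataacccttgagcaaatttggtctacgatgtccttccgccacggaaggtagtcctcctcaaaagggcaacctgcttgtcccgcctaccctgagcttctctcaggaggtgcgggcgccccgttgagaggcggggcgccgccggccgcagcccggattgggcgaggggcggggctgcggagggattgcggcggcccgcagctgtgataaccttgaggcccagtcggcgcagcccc
Pdk3: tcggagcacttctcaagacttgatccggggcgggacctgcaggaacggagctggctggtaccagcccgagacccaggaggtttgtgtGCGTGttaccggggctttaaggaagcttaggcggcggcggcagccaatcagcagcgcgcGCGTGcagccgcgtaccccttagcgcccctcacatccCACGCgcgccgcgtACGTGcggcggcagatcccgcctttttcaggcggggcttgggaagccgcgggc
Bpgm: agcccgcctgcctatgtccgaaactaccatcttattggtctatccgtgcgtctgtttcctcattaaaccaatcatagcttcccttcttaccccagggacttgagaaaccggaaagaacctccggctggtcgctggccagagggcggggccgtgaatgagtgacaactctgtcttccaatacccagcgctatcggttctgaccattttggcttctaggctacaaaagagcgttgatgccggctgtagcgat
Slc2a1: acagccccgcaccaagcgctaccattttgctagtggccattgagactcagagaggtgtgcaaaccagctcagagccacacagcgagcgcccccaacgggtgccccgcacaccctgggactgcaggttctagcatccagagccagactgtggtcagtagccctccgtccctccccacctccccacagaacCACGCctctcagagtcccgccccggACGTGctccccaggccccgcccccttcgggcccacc
Ldha: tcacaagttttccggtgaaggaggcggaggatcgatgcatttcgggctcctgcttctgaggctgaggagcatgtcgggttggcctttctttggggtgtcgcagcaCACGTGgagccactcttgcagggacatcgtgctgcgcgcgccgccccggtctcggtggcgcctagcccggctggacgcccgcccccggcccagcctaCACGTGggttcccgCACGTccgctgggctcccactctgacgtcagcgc
These stretches held 3 matches for Pfkp, 0 for Pkm, 4 for Pdk3, 0 for Bpgm, 2 for Slc2a1 and 5 for Ldha, an E-box counting as a match on each strand. Among these 6 members, matches were present in some that were lower and in some that were not, and absent from Pkm and Bpgm. Pdk4, the other higher member, was not among the 6 and had 1 match in its whole window. A link between the motif and the differences was not tested. A match is a run of letters and not a measured binding site.

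Other genes of glucose metabolism were taken from a list of 72, of which 66 had a row. At the unadjusted mark 2 were lower and 5 higher, beside 3.67% and 8.99% of all genes, with a median difference of 0.13; none passed after adjustment (smallest limma adjusted p = 0.318). Adpgk, a glucokinase that uses ADP in place of ATP, was lower, at 7.77 and 7.26 in wild-type, against 4.93 and 5.91 in Tip110-/- (-2.10 ± 0.48, SE). In glycogen metabolism 2 of 8 genes were higher. Pygl, the liver glycogen phosphorylase, was at 4.55 and 4.53 against 5.62 and 6.01 (1.28 ± 0.25, SE). Ugp2, which makes UDP-glucose, was at 11.65 and 11.17 against 12.60 and 12.63 (1.21 ± 0.47, SE). None of the 8 genes of pyruvate entry, 6 of the pentose phosphate path, 7 of gluconeogenesis, 9 other hexose transporters or 4 lactate partners reached the mark.

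Among 16 genes of the hypoxia response, 1 was lower and 3 were higher, and 12 did not reach the mark, beside 3.67% of all genes lower and 8.99% higher. Epas1, the gene of HIF2-alpha, was at 9.77 and 10.90 in wild-type and at 8.37 and 5.46 in Tip110-/-, a difference of -3.42 ± 1.09 (SE). P4ha1, a collagen prolyl hydroxylase subunit, was at 6.26 and 5.28 against 7.51 and 9.08 (2.53 ± 0.70, SE). Vegfa, a secreted growth factor of blood vessels, was at 9.69 and 7.26 against 10.50 and 11.85 (2.70 ± 1.01, SE). Adm, which encodes the peptide adrenomedullin, was at 13.07 and 11.02 against 14.30 and 18.04 (4.12 ± 1.38, SE). P4ha1, Vegfa and Adm were highest in the single mutant outgrowth, where Epas1 was lowest. Hif1a, named after its values were seen, was at 8.84 and 9.27 against 9.53 and 9.74 and did not reach the mark (limma adjusted p = 0.576).

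In some marker lists most measured genes also differed between genotypes at the unadjusted mark. Of 12 epiblast markers 9 were lower at the unadjusted mark and none higher, beside 3.67% and 8.99% of all genes. Their summed signal, as log2, was 15.02 and 15.82 in wild-type, against 11.27 and 9.90 in Tip110-/-, and Otx2 was near background throughout. Most of the wild-type epiblast sums came from Nanog, Nr0b1 and Tdgf1. Most of the sum in the single mutant array came from Utf1, which did not reach the mark. All 9 measured mitosis genes were lower, with sums of 13.46 and 14.15 against 11.21 and 9.90. Of 10 trophoblast giant cell and placental genes 6 were higher (Prl5a1, Prl8a9, Prl8a1, Psg17, Cts7 and Mmp9), with sums of 17.49 and 16.74 against 17.68 and 19.11. Most of the wild-type sums came from Prl2c2, which overlapped between genotypes. In the other lists, 2 of 9 trophoblast progenitor and 1 of 12 primitive endoderm markers were higher and none lower. That endoderm marker, Ttr, was near background. Of the blood and fibroblast markers, 0 of 4 and 0 of 7 reached the mark. The single mutant outgrowth, lowest for Slc2a3, Pdk3 and Epas1, was also lowest for the epiblast sum, whereas Pfkp was almost equal in both mutant arrays and Pkm was higher in the single one. The part of these cell types and of cell division in the glycolysis values was not tested. In RNA of whole outgrowths, fewer cells of a type and less RNA per cell cannot be told apart.

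**Figure D4:**
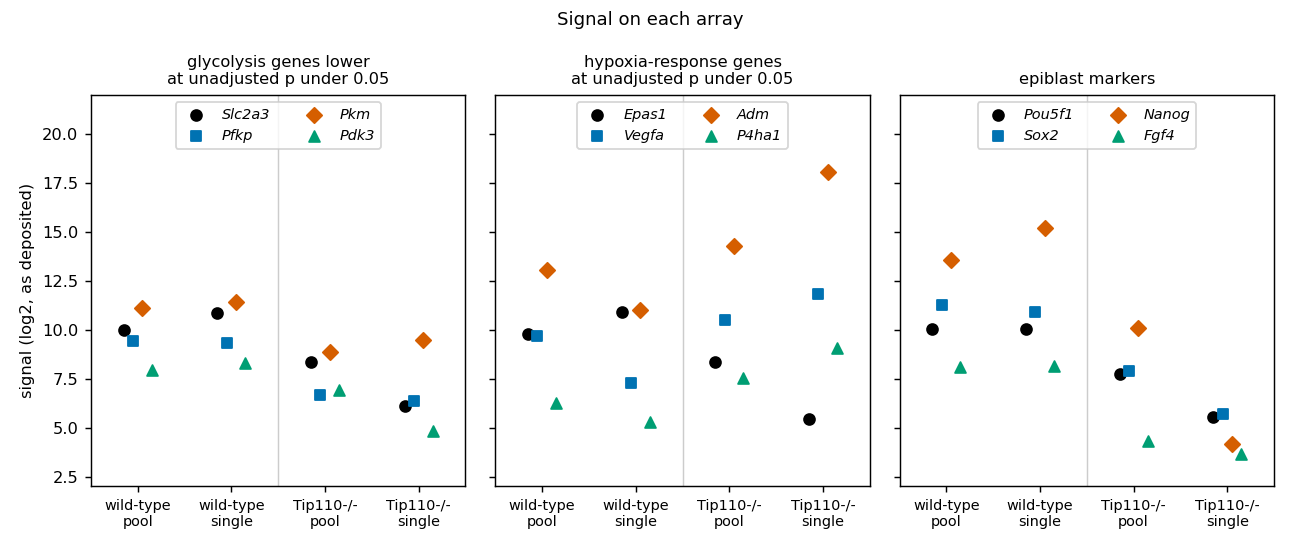
Deposited log2 signal on each array of the 4 lower glycolysis members, the 4 hypoxia-response genes at an unadjusted p under 0.05, and 4 epiblast markers. Slc2a3, Pdk3, Epas1 and the 4 epiblast markers shown were lowest in the single Tip110-/- outgrowth, and Pkm was lowest in the pooled one. Adm, Vegfa and P4ha1 were highest in the single Tip110-/- outgrowth. In the full epiblast list, Utf1 (8.80 pooled, 9.23 single) and Esrrb (4.15 pooled, 4.26 single) instead had their minimum in the pooled Tip110-/- array. Fgf5 and Otx2 had theirs in the single wild-type outgrowth.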

How the data were processed

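RNA of outgrowths of 2 genotypes was measured on Affymetrix whole-transcript mouse arrays, 2 per genotype. Per the labels, an array took 144 pg of RNA by the Pico protocol; the series' design text gives 100 pg. The authors deposited log2 values for 72688 rows, the log base being inferred from their range. The submitters' processing notes name Affymetrix Expression Console and Transcriptome Analysis Console; the normalization is not given in the sources used here, nor is the build. Arrays are few, which limits the precision.

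Rows were named through the platform annotation, updated by Entrez ID through the mouse gene table of GRCm38.p6. Only rows with 1 symbol entered the fit, 30142 genes at 1 row each. Each gene was fitted in limma 3.58.1 (R 4.3.3) by lmFit and trended eBayes on genotype alone, unfiltered; the fit was tested on simulated data. Benjamini-Hochberg adjustment of its two-sided p-values ran over all genes, at 0.05. Isozyme ratios were compared by exact permutation in SciPy 1.17.1.

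The members and lists were chosen with earlier results of these data known. Every member is accounted for; full values and the test are given at an unadjusted p under 0.05 or a difference of at least 1 (log2), and other pathway genes are named at that p. Summed marker signals add values off the log scale. Alternatives were each array left out, the replicate number as a block, array weights, untrended and robust priors, averaging a gene's rows, dropping rows below the table's median, and 3 scalings (quantile, median, cyclic loess).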

Additional observations from a re-analysis of the deposited data

How the results depend on the processing

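No member passed adjustment under any of the 13 other settings. Without the rows below the median row of the table, 21 members were left. Of these, 0 were higher, beside 5.47% of all genes kept, and 4 were lower, beside 5.93%. In 11 of them the genotypes did not overlap, and that share of all genes kept was not computed. The median difference of the 21 members was -0.26, against 0.075 for all genes kept. The count of higher members was 1 with arrays centred on their median. With the replicate number as a block it was 1, beside 7.38% of all genes, and the count of lower members was 4, beside 3.69%. Arrays with the same number share whether they were pooled or single. Their deviations from the genotype means were correlated at -0.09 across genes, which cannot show whether they share anything else. With 1 array left out, lower members numbered 1 to 4, beside 2.86% to 4.36% of all genes, and higher members 0 to 6, beside 3.87% to 15.5%. Pfkp alone was lower without wild-type replicate 2, Pfkp and Pkm without Tip110-/- replicate 2, and 0 members were higher without wild-type replicate 1 and 6 without Tip110-/- replicate 2 (where 15.5% of all genes were), all 6 near background (Eno2, Hk3, Pdk4, Pgam2, Slc2a2 and Slc2a4). Hk2 replaced Pdk3 among the lower members without wild-type replicate 1, and Ldhb replaced Pkm, and Eno3 replaced Bpgm among the higher ones, without Tip110-/- replicate 1; Ldhb was the added lower member with centring. Sart3 ranged from -1.57 to -0.53 with 1 array left out (without wild-type replicates 1 and 2) and stayed at -1.05 without the intensity trend and with array weights, and was under an unadjusted p of 0.05 with neither, nor without wild-type replicate 2 or either Tip110-/- replicate.

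Members below the mark turned sign as follows; the cause was not tested. With quantile normalization, centring and cyclic loess, Aldoc was at -0.075, -0.043 and -0.063 and Hk1 at -0.10, -0.079 and -0.097. Hk3 was at -0.0025 with quantile normalization, Pfkfb4 at -0.0072 with centring and -0.0030 with cyclic loess, and Pfkl at -0.068 with centring. With 1 array left out, Ldha ranged from -0.13 to 0.57, Pdk1 from -0.14 to 0.045, Pfkl from -0.0086 to 0.20, Pfkm from -0.97 to 0.44, Pgam1 from -1.44 to 0.73, Pgk1 from -0.92 to 0.51, Pklr from -0.20 to 0.0086, Slc16a1 from -0.52 to 1.03, Slc16a3 from -0.21 to 0.064 and Tpi1 from -0.83 to 0.40. Taking Pgk1 from its X row was chosen after seeing the data. The differences in isozyme ratios moved by less than their spread under quantile normalization, cyclic loess and the mean of a gene's rows. Signal near background limits what the 11 dim members can show.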
